A study of Mus musculus with 6 samples.

Results

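Cytochrome P450 genes were compared between cholecystokinin cells and other cells of the mouse intestine. The members are all genes whose single annotated symbol is Cyp followed by a digit, which gave 73 of the 18193 genes measured, in 35 subfamilies. For the 19 members with more than 1 probe set, the brightest on average stood for the gene. A further 4 probe sets carry the symbols of several P450 genes and are not analysed here.

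P450 enzymes are haem proteins that insert an oxygen atom into their substrates, using electrons passed on by a reductase. The families from Cyp1 to Cyp4 hold most enzymes that oxidise drugs, dietary compounds, fatty acids and eicosanoids, and higher family numbers hold mainly enzymes of sterol, bile acid, steroid hormone, vitamin D and retinoic acid metabolism. In the small intestine, absorptive enterocytes are known as the main site of P450 metabolism of food and drugs before these reach the liver.

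The 6 samples were total RNA of sorted intestinal cells from adult Swiss Webster mice, all carrying the CCK-EGFP transgene, whose fluorescent protein labels cholecystokinin (Cck) cells, a kind of enteroendocrine cell. In 3 samples the sorted cells were fluorescent (CCK-EGFP), and in 3 they were non-fluorescent (non-EGFP) and, per the series design, equal in number. The labels name neither the segment of the intestine nor the mice behind each sample. P-values therefore measure only the spread between these samples, possibly a technical one, and the precision is limited by 3 arrays in each group. Values are log2 RMA intensities from Affymetrix arrays, where 1 unit is a doubling, and a difference is CCK-EGFP minus non-EGFP. Each array measures a pool, so fewer cells of a type and less RNA per cell cannot be told apart.

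The sorted groups were checked against cell type markers. All 11 enteroendocrine markers were higher in CCK-EGFP cells, Cck by 4.53. All 13 measured enterocyte markers lay above background in both groups, 0 were higher and 3 lower, and their mean level was 12.02, 12.16 and 12.96 in CCK-EGFP replicates 1 to 3 against 13.24 to 13.34 in non-EGFP cells. Tuft cell markers averaged 7.42 to 8.65 in CCK-EGFP and 5.46 to 6.27 in non-EGFP cells, with 4 of 7 higher. Goblet markers were lower in 3 of 8 and higher in 1, proximal small intestine genes lower in 2 of 6, and 0 of 5 Paneth markers passed, with a median difference of -1.38. Of 7 hepatocyte markers, genes of the organ richest in P450 enzymes, Alb and Ttr were higher (4.17 and 5.89) and Fgb lower (-0.85). The 3' minus 5' difference of the Pcx control probe sets, which tracks RNA integrity and amplification, was 2.36 to 3.07 in CCK-EGFP and 4.26 to 4.38 in non-EGFP samples, while those of Actb, Gapdh and Tfrc overlapped between the groups. The part of these differences in the P450 results was not tested.

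With all 6 arrays, P450 genes were more often lower than higher in CCK-EGFP cells, with a few far above the non-EGFP level. Of the 73 members, 19 were lower and 5 higher, and 49 did not pass (limma, Benjamini-Hochberg adjusted p under 0.05). Across all genes tested, 10.2% were lower and 14.0% higher. The median difference of the members was -0.51, against -0.17 for all genes, and 54 of 73 differences were below 0 (74.0%, against 58.3% of all genes). All CCK-EGFP arrays lay below all non-EGFP arrays for 36 members (49.3%, where 28.1% of all genes did so), and above them for 6 (8.22%, where 21.8% did so). The count of lower members was 4 without CCK-EGFP replicate 2, 5 without CCK-EGFP replicate 1, 8 without non-EGFP replicate 2 and 11 without non-EGFP replicate 1, settings in which 2.78%, 3.66%, 4.84% and 5.61% of all genes were lower. Higher members numbered 4, 5, 5 and 6 there, beside 7.50%, 8.07%, 10.9% and 11.4% of all genes. Lower calls thus did not outnumber higher ones when CCK-EGFP replicate 2 or CCK-EGFP replicate 1 was left out. Centring arrays on their medians, which shifts the median of all genes by -0.25, gave 27 lower and 5 higher, where 19.8% and 11.5% of all genes were.

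A large part of the family was not above background. The 95th percentile of 71 olfactory and vomeronasal receptor genes, 4.60, was taken as the background level. Both group means lay above it for 32 members and neither did for 34, a share of 46.6% where all genes had 25.3%. For 3 members the CCK-EGFP mean alone and for 4 the non-EGFP mean alone was above it. The counts of differences below 0 and of groups without overlap include members below the level in both groups. Examples are Cyp2b13 (means 2.17 and 2.33) and Cyp2c39 (2.48 and 2.72). In a fit of genes whose overall mean was above the level, the median difference was -0.56 for 36 members and 0.05 for all genes. There 14 members were lower and 5 higher, where 13.3% and 19.7% of all genes were. A fold against a mean below the level is given as at least the fold against the level. Of the 19 lower members, 4 had both means below the level, namely Cyp2c54, Cyp2d9, Cyp2d12 and Cyp4a12a, and no fold is given for these.

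**Figure D1:**
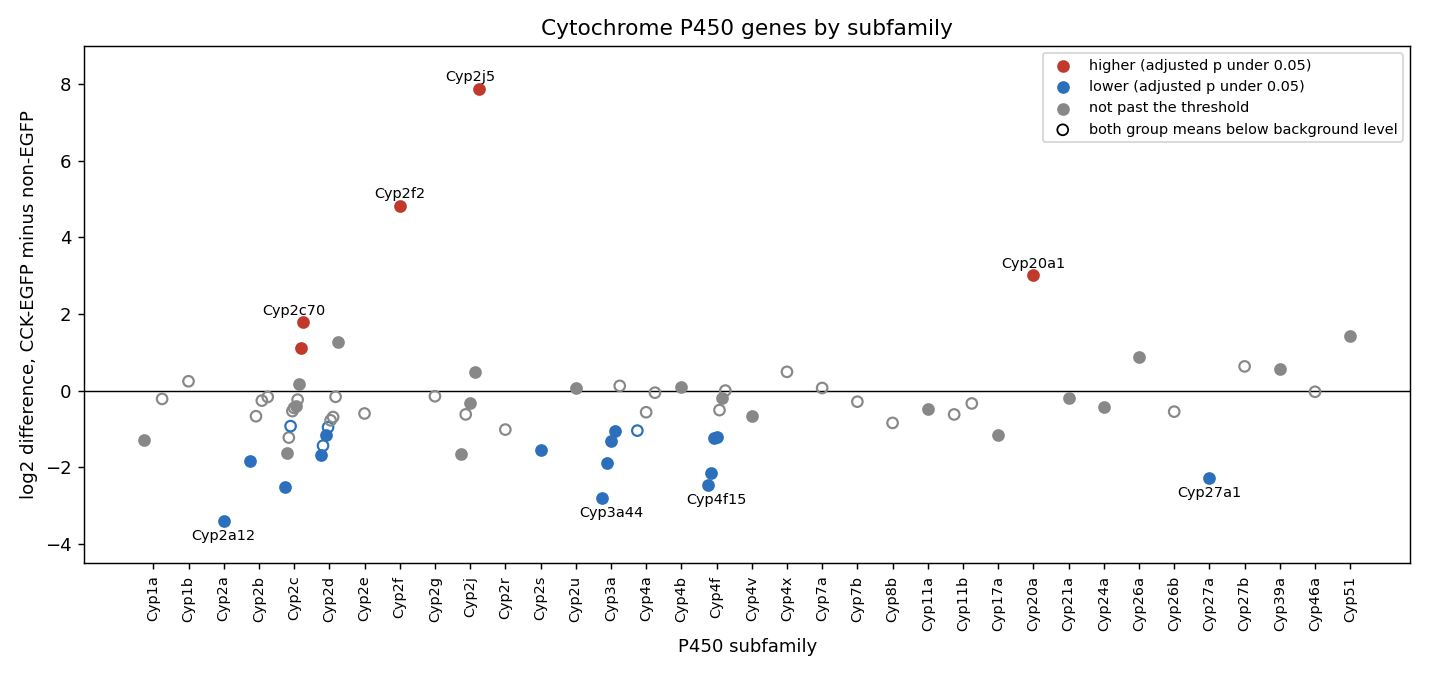
Log2 difference (CCK-EGFP minus non-EGFP, y axis) of each of the 73 P450 genes, by subfamily (x axis). Red points were higher and blue points lower at limma adjusted p under 0.05, grey points did not pass, and open points have both group means below the background level. Cyp2j5 stands at 7.88, and 54 of the 73 points lie below 0.

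**Figure D2:**
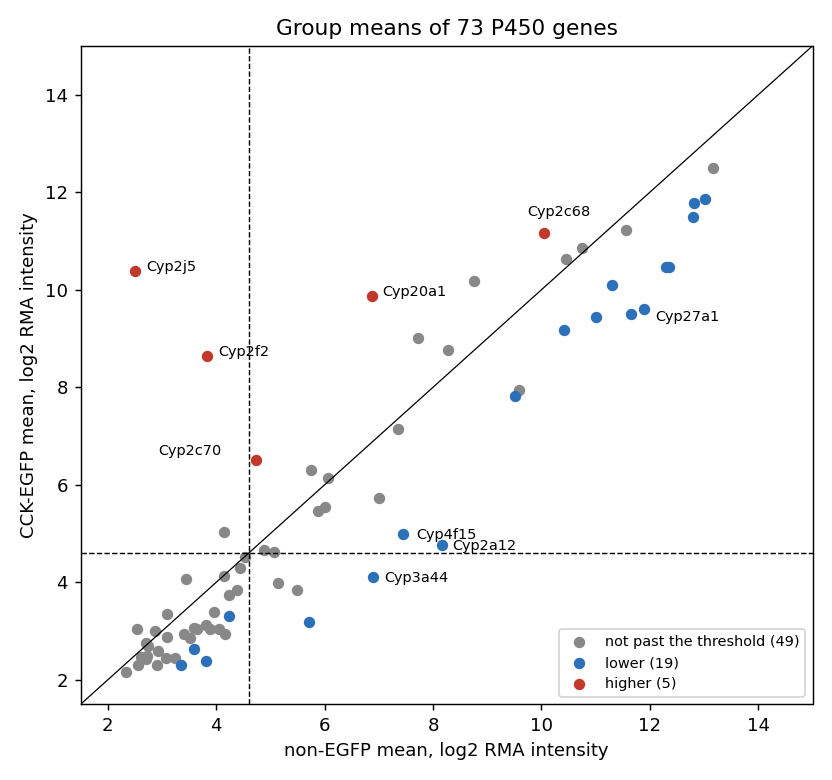
Mean log2 RMA intensity of each P450 gene in non-EGFP cells (x axis) and CCK-EGFP cells (y axis), with the line of equality and, dashed, the background level of 4.60. The 5 higher genes lie above the line and the 19 lower genes below it.

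Of the 5 higher genes, 2 had a non-EGFP mean below background. Cyp2j5, which makes epoxides from arachidonic acid and is best known in kidney and liver, was at 10.67, 10.52 and 9.95 in CCK-EGFP cells and at 2.40, 3.07 and 2.04 in non-EGFP cells. No array of either group came near the other, and the gene was at least 55.0-fold higher (difference 7.88, SE 0.33, limma adjusted p = 0.000104). Its other probe set differed by 3.84. Cyp2f2, the enzyme of lung club cells that activates naphthalene, was at 9.23, 9.37 and 7.35 in CCK-EGFP cells and at 3.39, 3.19 and 4.90 in non-EGFP cells. Replicate 3 of each group stood nearest the other group, and the gene was at least 16.6-fold higher (difference 4.82, SE 0.68, adjusted p = 0.00523).

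Cyp20a1, a P450 with no established substrate, was present in both groups. It was at 10.33, 9.90 and 9.41 in CCK-EGFP cells and at 6.36, 7.04 and 7.22 in non-EGFP cells, without overlap and 8.05-fold higher (difference 3.01, SE 0.33, limma adjusted p = 0.00210). Its 3 probe sets ranged from 0.31 to 3.01. Cyp2c70 and Cyp2c68 complete the higher genes and are described with their subfamily. For all 5 the lowest CCK-EGFP array was replicate 3, the array of that group with the highest mean of enterocyte markers, and replicate 3 was lowest for 62.2% of all 2515 genes that were higher and above background in CCK-EGFP cells. Arrays left out are named by group and replicate number. The calls of Cyp2j5, Cyp2f2, Cyp20a1 and Cyp2c70 held without any 1 of the 6 arrays, and that of Cyp2c68 ended when CCK-EGFP 2 was left out (adjusted p 0.0529).

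Of the 5 Cyp2j genes measured, Cyp2j5 alone passed. Cyp2j9 and Cyp2j6 come next to it, in that order, among RefSeq genes, and were expressed in both groups. Cyp2j9 was at 8.87, 8.84 and 8.56 in CCK-EGFP cells and 7.32, 8.80 and 8.72 in non-EGFP cells, so that the groups overlapped (difference 0.48, adjusted p = 0.406). Cyp2j6 was at 10.99, 11.07 and 11.63 against 11.66, 11.48 and 11.54, with an overlap as well (difference -0.33, adjusted p = 0.302). Cyp2j11 averaged 3.83, below background, in CCK-EGFP cells and read 7.10, 4.70 and 4.65 in non-EGFP cells, of which replicate 1 stands apart (difference -1.65, adjusted p = 0.124, and 0.0475 when replicate numbers were blocked). Cyp2j13 was below background in both groups. Whether Cyp2j5 differs from its neighbours in response was not itself tested.

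The Cyp2c subfamily, with 11 genes measured, was the only one with calls in both directions, 2 higher and 2 lower. Cyp2c enzymes oxidise fatty acids, drugs and bile acids. Cyp2c70, which makes muricholic acids in mouse liver, was at 6.97, 6.57 and 5.99 in CCK-EGFP cells and at 4.84, 4.41 and 4.94 in non-EGFP cells. Its groups did not overlap and it was 3.44-fold higher (difference 1.78, SE 0.30, limma adjusted p = 0.00958), with the non-EGFP mean of 4.73 close to background. Cyp2c68 was at 11.27, 11.32 and 10.90 against 10.00, 9.99 and 10.14, tight in both groups and 2.17-fold higher (difference 1.12, SE 0.20, adjusted p = 0.0107), a call that ended when CCK-EGFP 2 was left out (adjusted p 0.0529).

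Cyp2c29, an epoxygenase of arachidonic acid, went the other way. It was at 2.20, 3.08 and 4.30 in CCK-EGFP cells, all below background, and at 6.49, 4.40 and 6.25 in non-EGFP cells. The groups parted narrowly, and the gene was at least 2.17-fold lower (difference -2.53, SE 0.72, limma adjusted p = 0.0475). Its call ended when replicate numbers were blocked (adjusted p = 0.0530) and when CCK-EGFP 1, CCK-EGFP 2, non-EGFP 1 or non-EGFP 3 was left out (largest adjusted p 0.133). Cyp2c54 was called lower with both means below background (3.31 ± 0.08 and 4.24 ± 0.24, SD, n = 3, adjusted p = 0.0196), a call that ended when CCK-EGFP 1, CCK-EGFP 2 or CCK-EGFP 3 was left out (largest adjusted p 0.0750).

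The other 7 Cyp2c genes did not pass. Cyp2c65 was at 10.68, 10.79 and 10.44 in CCK-EGFP cells and 10.70, 10.30 and 10.36 in non-EGFP cells, with overlap (difference 0.19, adjusted p = 0.510). Cyp2c55 averaged 5.47 ± 0.47 and 5.88 ± 0.69 (SD, n = 3, limma adjusted p = 0.471). Cyp2c23, another arachidonic acid epoxygenase, was at 7.34, 7.47 and 9.03 against 9.14, 10.16 and 9.44. The groups did not overlap, but CCK-EGFP replicate 3 came close to the non-EGFP arrays (difference -1.63, adjusted p = 0.0625), and without it the difference was -2.18 (adjusted p = 0.0124). Cyp2c37, Cyp2c38, Cyp2c39, a retinoic acid hydroxylase, and Cyp2c50 had both means below background, with differences of -1.22 to -0.23.

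The Cyp3a subfamily, the main drug- and steroid-oxidising P450 enzymes of gut and liver, was lower in 4 of 5 genes, with a median difference of -1.31. Cyp3a11, the principal mouse Cyp3a and a target of the pregnane X receptor, was at 11.85, 11.43 and 12.04 in CCK-EGFP cells and at 13.01, 12.76 and 12.69 in non-EGFP cells (2.07-fold lower, difference -1.05, SE 0.23, limma adjusted p = 0.0210). Cyp3a13 was 2.48-fold lower (11.50 ± 0.47 against 12.80 ± 0.30, SD, n = 3, adjusted p = 0.0243). Cyp3a25 was at 9.65, 10.27 and 11.50 against 12.36, 12.38 and 12.32, where the CCK-EGFP arrays spread widely and the non-EGFP arrays hardly at all (3.69-fold lower, adjusted p = 0.0296). Groups overlapped for none of these genes.

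Cyp3a44 showed the largest difference of the subfamily. It was at 3.95, 3.55 and 4.80 in CCK-EGFP cells and at 7.36, 6.90 and 6.43 in non-EGFP cells, and was at least 4.92-fold lower (difference -2.80, SE 0.39, limma adjusted p = 0.00505). Cyp3a16 was below background in both groups (adjusted p = 0.805). Cyp3a44, Cyp3a11 and Cyp3a25 follow each other in the RefSeq gene order. The call of Cyp3a44 held without any 1 of the 6 arrays. That of Cyp3a11 ended when CCK-EGFP 1, CCK-EGFP 2, non-EGFP 1 or non-EGFP 2 was left out (largest adjusted p 0.0758). Cyp3a13 lost its call when CCK-EGFP 2, CCK-EGFP 3, non-EGFP 1 or non-EGFP 2 was left out (largest adjusted p 0.0745), and Cyp3a25 when any array other than CCK-EGFP 3 was left out (largest adjusted p 0.103).

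Promoter letters of the P450 genes are shown because the Cyp2c subfamily held calls in both directions. The 250 bases upstream of the start were searched in the 52 members listed in the RefSeq promoter table (GRCm38.p6). The binding letters of HNF4A, a nuclear receptor of enterocytes and hepatocytes, CAAAGTCCA or the reverse TGGACTTTG, occurred in 6 of the 52 genes (11.5%) and in 0.451% of the 27025 genes of the table. The 6 are not independent, since subfamily members share ancestry. They include 2 higher genes, 1 lower gene and 3 that did not pass, so the same letters stand before genes of different direction. Among the lower Cyp2c genes, Cyp2c29 was searched and lacks these letters, and Cyp2c54 is not in the promoter table. Cyp2c37, Cyp2c38, Cyp2c39, Cyp2c50 and Cyp2c55, which did not pass, were searched and lack them too. The last 120 bases before the start are shown on the coding strand, with the motif in capitals.
Cyp2c70, chr19:40187287-40187406, minus strand, higher: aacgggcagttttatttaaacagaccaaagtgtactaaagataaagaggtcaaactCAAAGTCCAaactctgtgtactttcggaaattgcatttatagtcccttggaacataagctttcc
Cyp2c68, chr19:39741102-39741221, minus strand, higher: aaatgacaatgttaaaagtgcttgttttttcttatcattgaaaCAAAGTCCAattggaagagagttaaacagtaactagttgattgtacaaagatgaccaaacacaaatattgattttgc
Cyp2c65, chr19:39060886-39061005, plus strand, not past the threshold: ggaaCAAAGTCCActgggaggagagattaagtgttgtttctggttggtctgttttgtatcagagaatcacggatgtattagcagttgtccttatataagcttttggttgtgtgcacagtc
Cyp3a11, chr5:145879855-145879974, minus strand, lower: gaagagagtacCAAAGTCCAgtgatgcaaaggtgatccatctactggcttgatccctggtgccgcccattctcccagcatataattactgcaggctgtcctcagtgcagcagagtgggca
Cyp3a16, chr5:145469724-145469843, minus strand, not past the threshold: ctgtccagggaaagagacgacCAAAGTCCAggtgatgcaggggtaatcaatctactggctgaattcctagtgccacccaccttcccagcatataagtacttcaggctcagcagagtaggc
Cyp8b1, chr9:121916306-121916425, minus strand, not past the threshold: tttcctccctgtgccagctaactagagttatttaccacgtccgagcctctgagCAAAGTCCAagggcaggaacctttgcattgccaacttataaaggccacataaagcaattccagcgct

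The motif begins 64 bases upstream of the start in Cyp2c70, 67 in Cyp8b1, 77 in Cyp2c68, 99 in Cyp3a16, 109 in Cyp3a11 and 116 in Cyp2c65. Of the other letters searched on both strands, TATAAA occurred in 36.5% of the 52 genes and 14.3% of all genes, the aryl hydrocarbon receptor core GCGTG in 25% and 30.9%, the CDX2 letters TTTATGG in 3.85% and 2.83%, and the sterol element TCACNCCAC in 0 of 52 and 1.22%. The sterol element contains the reverse of the aryl hydrocarbon receptor core, CACGC, when its N is G. Otherwise no motif's letters contain another's. A match is a description of letters, not a site. Hnf4a itself averaged 12.80 ± 0.05 in CCK-EGFP and 12.98 ± 0.07 in non-EGFP cells (SD, n = 3, limma adjusted p = 0.450), with its 4 probe sets at -2.26 to -0.17.

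Cyp2a12, a steroid and bile acid hydroxylase of liver, showed the largest negative difference of the members. It was at 4.37, 4.76 and 5.15 in CCK-EGFP cells, close to background, and at 8.68, 8.35 and 7.45 in non-EGFP cells. It was 10.6-fold lower (difference -3.40, SE 0.37, limma adjusted p = 0.00205), and its call held without any 1 of the 6 arrays. In the RefSeq gene order Cyp2a12 stands directly beside Cyp2f2, which was higher. Cyp2s1, an epithelial P450 induced through the aryl hydrocarbon receptor, was at 8.73, 9.41 and 10.21 against 10.94, 11.36 and 10.71 (2.94-fold lower, adjusted p = 0.0359). Its call ended when replicate numbers were blocked (0.0564) and when any array other than CCK-EGFP 3 was left out (largest adjusted p 0.111).

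Cyp2b10, the standard target of the constitutive androstane receptor and the neighbour of Cyp2s1, was the 1 lower gene of 4 Cyp2b genes. It was at 10.16, 10.04 and 11.17 in CCK-EGFP cells and at 12.53, 12.46 and 11.92 in non-EGFP cells, and was 3.60-fold lower (difference -1.85, SE 0.35, limma adjusted p = 0.0144). Its 3 probe sets lay between -2.01 and -1.85, and its call ended when CCK-EGFP 1 or CCK-EGFP 2 was left out (largest adjusted p 0.0577). Cyp2b9, Cyp2b13 and Cyp2b19 had both means below background. So did Cyp2e1, the ethanol-oxidising enzyme, Cyp2g1, an olfactory P450, and Cyp2r1, a vitamin D hydroxylase. Cyp2e1 passed without non-EGFP replicate 1 (difference -0.80, adjusted p = 0.0393). Cyp2u1, a fatty acid hydroxylase, averaged 6.14 ± 0.34 and 6.07 ± 0.19 (SD, n = 3, adjusted p = 0.816).

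Of 8 Cyp2d genes, relatives of the human debrisoquine hydroxylase, 4 were lower, though 2 of these, Cyp2d9 and Cyp2d12, lay below background in both groups. Cyp2d26 was at 11.43, 11.70 and 12.46 in CCK-EGFP cells and at 13.08, 13.02 and 12.95 in non-EGFP cells (2.22-fold lower, difference -1.15, limma adjusted p = 0.0339). Cyp2d22 was at 7.87, 8.21 and 7.36 against 9.86, 9.77 and 8.89 (3.23-fold lower, adjusted p = 0.0182). Its other probe set averaged 8.16 against 9.11, a difference of -0.95. That probe set did not pass in the fit over all probe sets (limma adjusted p = 0.0953). Groups overlapped for neither gene, and replicate 3 was the lowest array of both groups for Cyp2d22.

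Cyp2d10 had a positive difference that did not pass. It was at 9.30, 9.87 and 7.85 in CCK-EGFP cells and 8.68, 8.82 and 5.69 in non-EGFP cells, with overlapping groups and a low replicate 3 in both (difference 1.28, adjusted p = 0.329). Cyp2d13, Cyp2d34 and Cyp2d40 had both means below background. The call of Cyp2d26 ended when replicate numbers were blocked (adjusted p = 0.0554) and when any array other than CCK-EGFP 3 was left out (largest adjusted p 0.118). Cyp2d22 lost its call when CCK-EGFP 1, non-EGFP 1 or non-EGFP 2 was left out (largest adjusted p 0.0596). Of the dim pair, Cyp2d9 lost its call with the block (0.0599) and when any array other than non-EGFP 3 was left out (largest adjusted p 0.123), and Cyp2d12 when CCK-EGFP 1, CCK-EGFP 2 or non-EGFP 2 was left out (largest adjusted p 0.0702).

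**Figure D3:**
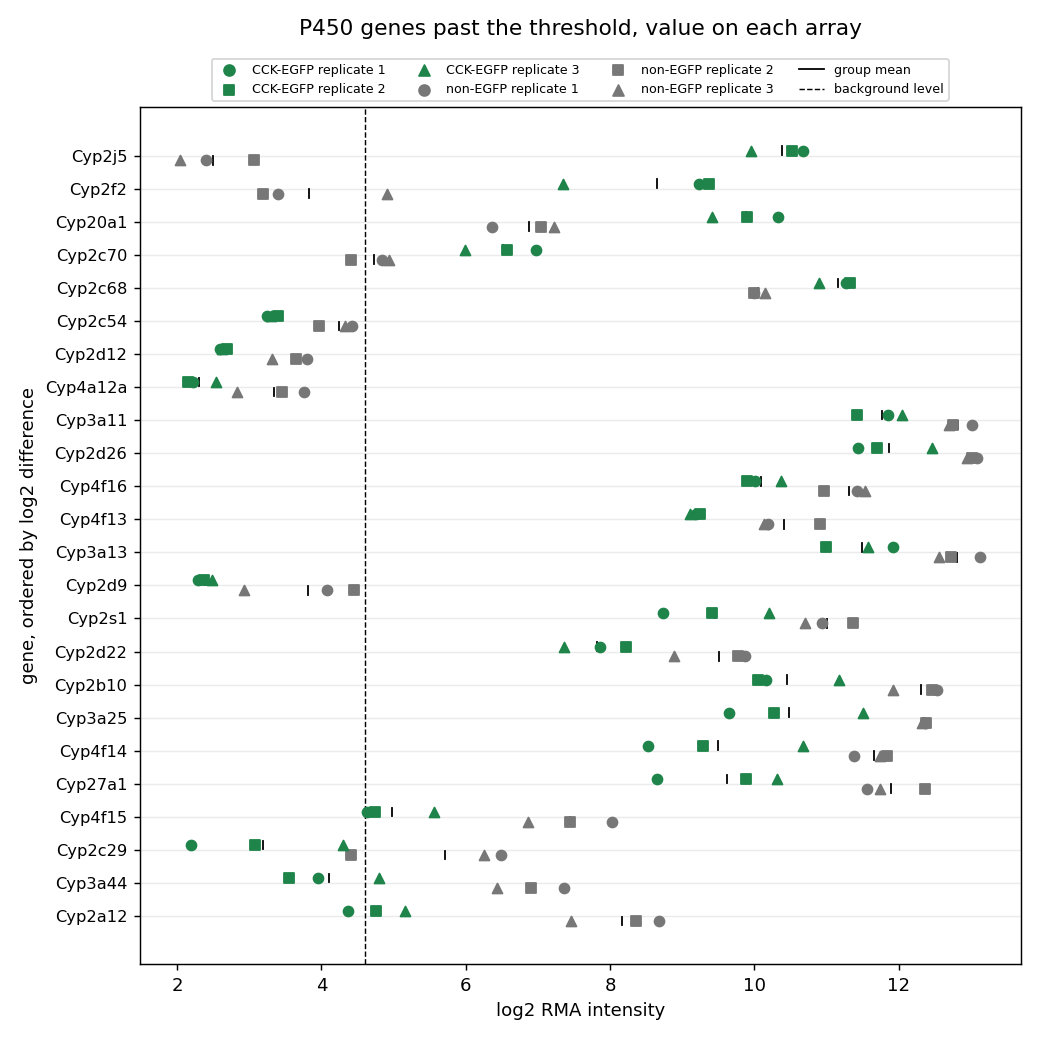
Log2 RMA intensity (x axis) of the 24 P450 genes past the threshold (y axis, ordered by difference) on each of the 6 arrays. Green symbols are CCK-EGFP and grey symbols non-EGFP arrays, the shape gives the replicate number, short lines are group means and the dashed line is the background level of 4.60. The groups overlap for none of the 24 genes, and for 10 of the 13 lower genes above background in both groups CCK-EGFP replicate 3 is the highest green symbol.

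The Cyp4f subfamily, which hydroxylates the end of fatty acid, leukotriene and vitamin E side chains, was lower in 4 of 7 genes, with a median of -1.22. Cyp4f14, the mouse vitamin E and leukotriene B4 hydroxylase, was at 8.53, 9.29 and 10.67 in CCK-EGFP cells and at 11.38, 11.84 and 11.74 in non-EGFP cells (4.46-fold lower, difference -2.16, SE 0.53, limma adjusted p = 0.0306). Cyp4f15 was at 4.63, 4.75 and 5.56 against 8.03, 7.44 and 6.87, so that CCK-EGFP cells were near background (5.52-fold lower, difference -2.47, SE 0.38, adjusted p = 0.00723). Cyp4f16 was 2.32-fold lower (10.09 ± 0.24 against 11.31 ± 0.30, SD, n = 3, adjusted p = 0.0154), with its 2 probe sets at -1.42 and -1.22. Cyp4f13 was 2.35-fold lower (9.18 ± 0.07 against 10.41 ± 0.43, adjusted p = 0.0183). Groups overlapped for none of the 4.

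These 4 genes lie in 1 cluster of the RefSeq gene order together with Cyp4f39, an enzyme of skin ceramides, which did not pass (4.67 and 4.88, adjusted p = 0.529). Cyp4f18, a leukotriene hydroxylase of neutrophils that lies on another chromosome, and the pseudogene Cyp4f41-ps had both means below background. The call of Cyp4f15 held without any 1 of the 6 arrays. Cyp4f13 lost its call when CCK-EGFP 1 or CCK-EGFP 2 was left out (largest adjusted p 0.0658), Cyp4f16 when CCK-EGFP 1 or CCK-EGFP 2 was left out (largest adjusted p 0.0676) and Cyp4f14 when any array other than CCK-EGFP 3 was left out (largest adjusted p 0.104).

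Other Cyp4 genes mostly did not pass. Cyp4v3, a fatty acid hydroxylase, was at 12.30, 12.38 and 12.83 in CCK-EGFP cells and 13.22, 13.21 and 13.07 in non-EGFP cells. The groups did not overlap (difference -0.66, limma adjusted p = 0.0631), and without CCK-EGFP replicate 3 the difference was -0.82 (adjusted p = 0.0429). Cyp4b1 averaged 10.86 ± 0.31 and 10.76 ± 0.12 (SD, n = 3, adjusted p = 0.748). All 3 Cyp4a genes, fatty acid hydroxylases driven by Ppara in liver, were below background in both groups. Among them Cyp4a12a was called lower (2.30 ± 0.21 and 3.35 ± 0.47, adjusted p = 0.0420), a call that ended with the replicate number blocked (0.0773) and when any array other than non-EGFP 3 was left out (largest adjusted p 0.134). Cyp4x1 was below background as well.

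Of the sterol, bile acid and vitamin D enzymes outside the Cyp2 family, Cyp27a1 was lower and the others did not pass. Cyp27a1, the mitochondrial sterol hydroxylase, was at 8.65, 9.88 and 10.31 in CCK-EGFP cells and at 11.56, 12.37 and 11.74 in non-EGFP cells. No arrays overlapped and it was 4.85-fold lower (difference -2.28, SE 0.46, limma adjusted p = 0.0173). Its other probe set differed by -1.50, and the call ended when CCK-EGFP 2 or non-EGFP 2 was left out (largest adjusted p 0.0546).

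Cyp51, the lanosterol demethylase of cholesterol synthesis, was at 11.03, 10.17 and 9.31 in CCK-EGFP cells and 9.08, 7.79 and 9.38 in non-EGFP cells. Its groups overlapped through replicate 3 (difference 1.42, SE 0.57, limma adjusted p = 0.112), and its 3 probe sets ranged from 0.38 to 2.01. Cyp39a1, an oxysterol hydroxylase, was at 5.67, 6.67 and 6.58 against 3.21, 7.48 and 6.54, with 1 low non-EGFP array (difference 0.56, adjusted p = 0.703, and -0.70 without that array). Cyp24a1, which breaks down active vitamin D, averaged 4.63 ± 0.07 and 5.06 ± 0.14 (SD, n = 3, adjusted p = 0.115). The liver bile acid enzymes Cyp7a1, Cyp7b1 and Cyp8b1, the brain cholesterol hydroxylase Cyp46a1 and Cyp27b1, which makes active vitamin D, had both means below background. Of these Cyp8b1 came nearest the threshold (difference -0.84, adjusted p = 0.0544).

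Cyp1a1, the sentinel target of the aryl hydrocarbon receptor, varied more between replicate numbers than between groups. It was at 8.55, 3.59 and 5.02 in CCK-EGFP replicates 1 to 3 and at 10.30, 4.70 and 6.0 in non-EGFP replicates 1 to 3. Replicate 1 was the highest and replicate 2 the lowest of both groups, and within each number the CCK-EGFP array was lower, by 1.75, 1.11 and 0.98. The difference of -1.28 did not pass without a block (SE 1.77, limma adjusted p = 0.599) and passed with the replicate number as a block (adjusted p = 0.0301). Left without non-EGFP replicate 1, the unblocked difference was 0.37. Cyp1a2 and Cyp1b1 were below background in both groups.

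Steroid hormone and retinoic acid enzymes did not pass on the probe set that stood for each gene. Cyp11a1, the side-chain cleavage enzyme that starts steroid synthesis, averaged 5.54 ± 0.47 and 6.01 ± 0.54 (SD, n = 3, limma adjusted p = 0.352), and its 3 probe sets lay between -1.09 and -0.23. The probe set at -1.09 passed in the fit over all probe sets (3.88 against 4.97, limma adjusted p = 0.0193), with its CCK-EGFP mean below background. Cyp21a1, an adrenal steroid hydroxylase, averaged 7.15 ± 0.15 and 7.36 ± 0.13 (adjusted p = 0.429). Cyp17a1, an enzyme of androgen synthesis, read 4.09, 7.02 and 4.32 in non-EGFP cells, where replicate 2 alone was above background (difference -1.16, adjusted p = 0.317). Cyp11b1 and Cyp11b2 were below background. Cyp26a1, which breaks down retinoic acid, averaged 5.02 ± 0.18 in CCK-EGFP cells against 5.10, 3.88 and 3.48 in non-EGFP cells (adjusted p = 0.167), and without non-EGFP replicate 1 the difference was 1.34 (adjusted p = 0.0198). Cyp26b1 was below background.

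Nuclear receptors and partners that control P450 genes were themselves often lower in CCK-EGFP cells. Of 18 measured, 8 were lower (44.4%, against 10.2% of all genes), 2 higher (11.1%, against 14.0%) and 8 did not pass, with a median difference of -0.82. The constitutive androstane receptor Nr1i3, which drives Cyp2b10, averaged 8.33 ± 0.99 against 10.82 ± 0.08 (difference -2.49, SD, n = 3, limma adjusted p = 0.0142). The pregnane X receptor Nr1i2, which drives Cyp3a11, fell by 1.57 (adjusted p = 0.0243), the liver X receptor Nr1h3 by 2.07 (0.00368) and the corepressor Nr0b2 by 2.18 (0.0275). Vdr, the vitamin D receptor, did not pass (difference -0.64, adjusted p = 0.111). The count of lower receptors was 1 without CCK-EGFP 2, 2 without non-EGFP 2, 3 without non-EGFP 1 and 4 without CCK-EGFP 1, where 2.78%, 4.84%, 5.61% and 3.66% of all genes were lower, and that of higher receptors 0 without CCK-EGFP 1, CCK-EGFP 2, CCK-EGFP 3, non-EGFP 1 or non-EGFP 2. Blocking the replicate number ended the lower calls of Nr0b2 (0.0674) and the bile acid receptor Nr1h4 (0.0657) and the higher call of Srebf2 (0.0727), which left 1 receptor higher. Nr1i3 lost its call when CCK-EGFP 2 was left out (adjusted p 0.0594), Nr1i2 when CCK-EGFP 1, CCK-EGFP 2, non-EGFP 1 or non-EGFP 2 was left out (largest adjusted p 0.0748) and Nr0b2 when CCK-EGFP 1, CCK-EGFP 2, non-EGFP 1 or non-EGFP 2 was left out (largest adjusted p 0.0859).

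Genes that supply electrons and haem to P450 enzymes were called in both directions, beside 10.2% lower and 14.0% higher of all genes. Of 9 redox partners 0 were higher and 1 lower, the mitochondrial electron carrier Fdx1 (difference -1.26, limma adjusted p = 0.0388). Cyb5b (difference -0.32), a cytochrome b5, and Pgrmc1 (-0.03), a haem-binding P450 partner, did not pass. Of 12 haem genes 3 were lower (25%) and 1 higher (8.33%). The lower genes were Blvrb, a biliverdin reductase (-1.18, adjusted p = 0.0390), and the haem synthesis enzymes Alad (-0.71, 0.0462) and Alas1 (-0.66, 0.0423), and the higher gene was Uros (0.93, 0.0249), also of haem synthesis. Urod (0.37) and Fech (-0.40) did not pass. Blocking the replicate number left 0 lower genes in both lists and 1 higher redox partner. Lower redox partners numbered 0 without CCK-EGFP 1, CCK-EGFP 2, non-EGFP 1 or non-EGFP 2, and higher ones 1 without non-EGFP 1. Lower haem genes numbered 0 without CCK-EGFP 1, CCK-EGFP 2, non-EGFP 1 or non-EGFP 2 and 1 without CCK-EGFP 3, and higher ones 0 without CCK-EGFP 1, CCK-EGFP 2 or non-EGFP 2.

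Enzymes listed around Cyp2j5 for eicosanoid and epoxide metabolism were called in both directions, more often higher. Of 13 epoxide hydrolases and other eicosanoid enzymes, 5 were higher (38.5%, against 14.0% of all genes), 2 lower (15.4%, against 10.2%) and 6 did not pass, with a median of -0.28. Ptgs2, the inducible cyclooxygenase, Ephx4, an epoxide hydrolase, and Ptges, a prostaglandin E synthase, had non-EGFP means below background. They were higher by at least 4.79 (limma adjusted p = 0.00188), 2.05 (0.000465) and 1.63 (0.0189) on the log2 scale. The 3 probe sets of Ptges ran from 0.00 to 3.05. Alox5, a lipoxygenase that starts leukotriene synthesis and is also found in tuft cells, was higher by 2.07 (0.0412). Ephx1 (0.11) and Ltc4s (-0.28) did not pass. Higher genes numbered 2 without CCK-EGFP 2 (7.50% of all genes) and 3 without CCK-EGFP 1, non-EGFP 2 or non-EGFP 3 (8.07%, 10.9% and 13.7%), and lower genes 0 without CCK-EGFP 1, CCK-EGFP 2, non-EGFP 1 or non-EGFP 2 and 1 without non-EGFP 3 or, with the replicate number blocked, 1. Alox5 lost its call when CCK-EGFP 1, CCK-EGFP 2, non-EGFP 2 or non-EGFP 3 was left out (largest adjusted p 0.126), and Ptges when CCK-EGFP 2 or non-EGFP 2 was left out (largest adjusted p 0.0732).

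Among 16 cholesterol synthesis genes, the pathway of Cyp51, 3 were higher (18.8%, against 14.0% of all genes), 1 lower (6.25%, against 10.2%) and 12 did not pass, with a median of 0.61. These shares lie near those of all genes. Squalene epoxidase Sqle was higher by 2.67 (limma adjusted p = 0.00248), squalene synthase Fdft1 by 1.90 (0.00638) and the last-step reductase Dhcr7 by 0.85 (0.0207), and the desaturase Sc5d fell by 0.83 (0.0303). The 4 probe sets of Fdft1 ran from -0.45 to 1.90. Hmgcs1 (0.51) and Ebp (-0.37) did not pass. Blocking the replicate number ended the calls of Sc5d (0.0529) and Dhcr7 (0.0502). Sc5d also lost its call when any array other than non-EGFP 3 was left out (largest adjusted p 0.115), and Dhcr7 when CCK-EGFP 1, CCK-EGFP 2 or non-EGFP 2 was left out (largest adjusted p 0.0819).

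Of 12 retinoid genes 1 was higher (8.33%, against 14.0% of all genes) and 2 lower (16.7%, against 10.2%). Bco1, which cleaves beta-carotene, was higher by 3.59 (8.95 ± 0.30 against 5.36 ± 0.44, SD, n = 3, limma adjusted p = 0.000663), whereas the retinol esterifying enzyme Lrat (-2.60, adjusted p = 0.0210) and the retinol dehydrogenase Rdh10 (-1.11, 0.0311) were lower. Rbp2 (-0.27) and Aldh1a1 (-0.73) did not pass. Lower retinoid genes numbered 0 without CCK-EGFP 2 or non-EGFP 2, 1 without CCK-EGFP 1 or non-EGFP 1 and 4 without CCK-EGFP 3. Of 8 steroid partners 1 was lower, the hydroxysteroid dehydrogenase Hsd3b3, with a CCK-EGFP mean below background (by at least 2.35 on the log2 scale, adjusted p = 0.0259, and 0.0563 when blocked). Nr5a2 (-0.83) and Hsd11b2 (0.62) did not pass. Lower steroid partners numbered 0 without CCK-EGFP 1, CCK-EGFP 2, non-EGFP 1 or non-EGFP 2 and 2 without non-EGFP 3.

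**Figure D4:**
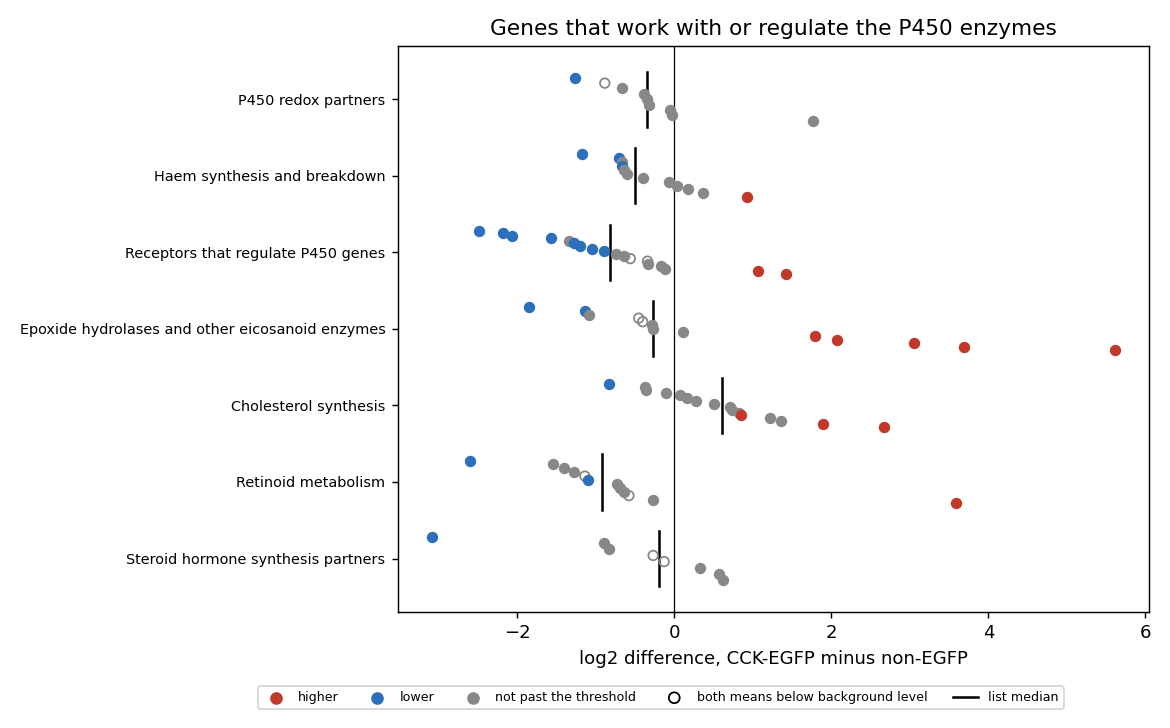
Log2 difference (x axis) of the genes of 7 lists that work with or regulate P450 enzymes (y axis). Red points were higher, blue points lower and grey points not past the threshold, open points have both means below background, and vertical lines are list medians. The receptor list has a median of -0.82 and the cholesterol list one of 0.61.

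The lower P450 genes and the enterocyte markers were both mostly highest, within the CCK-EGFP group, in replicate 3. Of the 13 lower members with both means above background, 10 were highest there (76.9%), as were 12 of 13 enterocyte markers, while of all 1499 such lower genes 57.7% were. Within each replicate number the 19 lower members were below and the 5 higher members above in CCK-EGFP cells. That follows from their groups not overlapping and adds no further support. Some lists of other cells were highest in CCK-EGFP replicate 3 too. Over replicates 1 to 3 the list means were 8.45, 9.33 and 10.70 for lymphocytes and 8.24, 7.78 and 10.34 for Paneth cells. Those for crypt and stem cells were 6.57, 5.91 and 7.35. In non-EGFP replicates 1 to 3 they also peaked in replicate 3 (9.11, 9.70 and 10.49, then 9.97, 9.29 and 11.20, then 5.72, 6.18 and 7.34). Enterocyte markers did not (13.24, 13.34 and 13.28). Tuft markers were lowest in CCK-EGFP replicate 3 (8.65, 8.05 and 7.42), and hepatocyte and pancreatic acinar markers were not highest there. The part of RNA from any of these cells in the P450 values was not tested. Without CCK-EGFP replicate 3 there were 17 lower and 5 higher members, where 7.61% and 11.8% of all genes were called.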

How the data were processed

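The authors deposited 1 table of log2 values for 45101 probe sets on 6 arrays, made with RMA per the submitters' processing notes, with no version named in the sources used here. Picogram amounts of RNA were amplified per the labels' protocols, which can add variation at low levels, and the table holds no detection call. Symbols were read from GEO's annotation of the array, of uncertain age: 34945 probe sets had 1 symbol, 932 several and 9160 were not listed. Of the 73 representative probe sets, 4 have the suffix _s_at (Cyp2b10, Cyp2c23, Cyp2c65 and Cyp4v3) and may detect several genes, and signal can be shared between similar P450 genes.

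Both groups entered 1 limma fit (version 3.58.1, R version 4.3.3) with moderated two-sided tests, adjusted by Benjamini-Hochberg over 18193 genes at a threshold of 0.05 and tested on simulated data. The members and lists were chosen with earlier results of these data known, and the promoter motifs after the values were seen. By rule the text names each member past the threshold, the highest member of each other subfamily, every gene of a subfamily called in both directions, and up to 4 called and 2 other genes per pathway list. Further members, Nr1h4, Srebf2, the hepatocyte markers and Cck were named after their values were seen. Samples are numbered 1 to 3 in both groups. Deviations from group means correlated at 0.159 to 0.27 within a number and at -0.245 to -0.0109 between numbers. As such deviations cancel within a group, between-number values are negative on balance whenever within-number values are positive. Pairs by number were used only in the replicate block and in comparisons within a number. The main fit did not use them, and values not marked as blocked come from fits without pairs. Blocked values stand beside the calls they change. Other alternatives were filters on dim genes, variance settings, array weights, median centring, repeated quantile normalization, averaged probe sets and each array left out.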

Additional observations from a re-analysis of the deposited data

How the results depend on the processing

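The called P450 genes kept their direction under every alternative in which they were measured. For left-out arrays and array weights this was fixed in advance, as the groups did not overlap for any called gene. The replicate block, filters and variance settings leave the difference itself unchanged. With 1 array left out, 7 calls were always kept and 17 ended at least once. Of the other alternatives, the filter at the background level left out 5 of the 24 (Cyp2c29, Cyp2c54, Cyp2d9, Cyp2d12 and Cyp4a12a) and that on the lowest 25% of genes left out the same genes but Cyp2c29, so these calls were not tested there. Where measured, 19 were kept and 5 ended with the replicate block, 2 of them also with repeated quantile normalization. The replicate block gave 5 higher and 16 lower members, with Cyp1a1 and Cyp2j11 added, where 12.9% and 8.43% of all genes were called. With 3 arrays a group, and 34 members not above background in either group, small differences could not be resolved.

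Over the arrays left out, lower members numbered 4 to 17 and higher members 4 to 6, beside 2.78% to 10.8% and 7.50% to 13.7% of all genes. The median difference was -0.53 to -0.42 for all members, -0.53 to -0.21 for Cyp2j, -0.70 to -0.32 for Cyp4a and -1.19 to -0.98 for Cyp4f. Centred on array medians, medians were -0.76 for all members, -0.72 for Cyp2b, -0.70 for Cyp2c, -0.58 for Cyp2j, -0.82 for Cyp4a and -1.47 for Cyp4f. Repeated quantile normalization gave -0.41 for all members, -0.25 for Cyp2b, -0.33 for Cyp2c and -0.42 for Cyp4a, and array weights -0.69 for Cyp4a. Among genes above background, or without the lowest 25% of genes, fewer members entered and the medians were -1.85 for Cyp2b and 0.073 for Cyp2j under both, and 0.19 and -0.11 for Cyp2c.

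For the pathway lists the cause of these moves was not tested. Higher redox partners numbered 1 with array weights, trended and robust variance, both filters, averaged probe sets or the replicate block, and lower ones 2 with centring or the trended variance, 3 with averaged probe sets and 0 with the block. Haem genes numbered 0 higher with centring or averaged probe sets and 0 lower with the block. Higher receptors numbered 1 with centring, trended variance, averaged probe sets or the block. Eicosanoid enzymes numbered 3 higher with repeated quantile normalization, and 4 lower with centring or 1 with the block. Cholesterol genes numbered 0 lower with averaged probe sets or the block, retinoid genes 4 lower with array weights or trended variance and 7 with centring, and steroid partners 0 lower with the block. With arrays left out the ranges of higher and lower counts were 0 to 1 and 0 to 1 for redox partners, 0 to 1 and 0 to 2 for haem, 0 to 3 and 1 to 8 for receptors, 2 to 4 and 0 to 2 for eicosanoid enzymes, 0 to 1 lower for cholesterol, 0 to 4 lower for retinoid genes and 0 to 2 lower for steroid partners.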
